A study of Mus musculus with 20 samples.

Results

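The genes described here encode the proteins of the mitochondrial ribosome, followed in Hepa1-6 cells, a mouse hepatoma line, while glutamine was withdrawn and returned. They were taken as every gene whose symbol in the platform annotation begins with Mrpl or Mrps followed by a digit. This gave 70 genes on 73 probes, among 15968 genes and unnamed probes on the arrays. By name, 43 belong to the large subunit (Mrpl) and 27 to the small subunit (Mrps).

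The medium of all flasks was exchanged at the start and after 24, 48 and 72 h of a course of 96 h. Experimental flasks alternated between 0 and 4 mM glutamine at these exchanges, and control flasks received 4 mM each time. Both kinds of flask were confluent at the start and shared DMEM with 25 mM glucose, penicillin-streptomycin and the serum substitute CPSR-3. Each of 20 spotted arrays compared Cy5-labelled RNA of the experimental flasks with Cy3-labelled RNA of the control flasks, and together they cover a series of 11 time points known by number. A single array was made at time points 5 and 11 and a pair at each of the other 9, where the second is titled with an r. Neither the sampling hours nor the glutamine level of the sampled experimental flask can be read from the labels. They also do not say whether an array titled r repeats the hybridisation or stands for a separate flask, so the spread between arrays may be technical.

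The mitochondrial ribosome translates the few mRNAs of the mitochondrial genome, which encode membrane subunits of the respiratory chain and of ATP synthase. Its RNAs are made inside the organelle, whereas all its proteins are encoded in the nucleus, made in the cytosol and imported. The large subunit forms peptide bonds and holds the exit tunnel, and the small subunit binds the mRNA and reads its codons. Some names follow older assignments. Mrps18a and Mrps30 are named for the small subunit although their human counterparts were placed in the large subunit, and the protein encoded by Mrps36 is now known as a component of the 2-oxoglutarate dehydrogenase complex. Glutamine enters the tricarboxylic acid cycle as 2-oxoglutarate.

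All values are log2 ratios after each array was centred on its median, so they are relative to the median spot of the array. A positive value likely means a higher level in glutamine-varied flasks, because channel 1 of each array holds their RNA per the labels, but neither this direction nor the base of the logarithm is stated there. No dyes were swapped, so a gene's dye bias cannot be told apart from a lasting difference between flasks. Arrays gave between 4269 and 8269 values, and their medians before centring lay between 0.05 and 0.435. On 1 array of time point 4, the control channel is labelled as cells without glutamine. The second array of time point 6 had values at other spots than the remaining arrays (median correlation of presence 0.00597, against 0.579 to 0.714 for the others). The values of the second array of time point 10 did not follow the other arrays (median r = -0.0079), and 111 of its spots held the value 16.92. Probes numbered 1, 21 and so on, at the first place of each run of 20, were raised on the array of time point 5 (median 2.72) and on the first array of time point 6 (median 1.28). Results are therefore also given for a reduced set of 18 arrays, without these 2 arrays and without those spots. Markers of cell types were also looked at, although a ratio between flasks of the same line cannot show what the cells are. Of 11 hepatocyte markers, 9 had a probe and 8 had values. Of 5 tested, 3 means lay below 0 and 2 above. Alb (-0.56 ± 0.21, SD over 9 time points) and Krt8 (-0.25 ± 0.19, SD over 10 time points) were called lower. Of all genes, 13.6% were called higher and 9.05% lower. Of 5 macrophage markers listed, 3 had a probe and none had a value. All 6 fibroblast markers and all 4 endothelial markers had values on some arrays, and of these Col1a2 was called higher (0.19 ± 0.10, SD over 11 time points). In these whole-flask RNAs, fewer cells of a type and less RNA per cell cannot be told apart.

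Of the 70 genes, 10 had no value on any array, namely Mrpl1, Mrpl2, Mrpl9, Mrpl20, Mrpl23, Mrpl43, Mrpl53, Mrps7, Mrps18b and Mrps28. A further 28 genes had values on 1 to 8 arrays, 12 on 9 to 15 and 20 on 16 or more. Only Mrpl17 was measured on all 20. The tests below therefore rest on the better measured members, and the meaning of a blank spot is not stated in the labels. Between the 2 arrays of a time point, the median absolute difference over the family lay between 0.13 and 0.24, except at time point 10, where it was 0.685.

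Averaged over the time course, the family stayed close to the median spot. The mean over time points could be tested in 25 members with values at 9 or more time points, and their median was -0.02, against 0.02 over all genes tested. Means lay below 0 in 17 of the 25 members (68.0%), Mrpl24 and Mrps10 among them, against 45.7% of all genes. In limma's test of the mean against 0, with Benjamini-Hochberg adjustment over all genes, 1 member was higher and 3 were lower in glutamine-varied flasks. These 4 of 25 compare with 22.6% of all genes called (13.6% higher and 9.05% lower), so the share in the family was near the background. These directions are relative to the array median: on the deposited values without centring, where the median mean of all genes was 0.28, 12 members were called higher and 0 lower, and 60.9% of all genes were called. The lower means of Mrpl46, Mrps15 and Mrps18a described next then lay between 0.0123 and 0.047. The 12 Mrpl genes tested had a median of -0.01 with 1 call in each direction, and the 13 Mrps genes had a median of -0.04 with 2 lower calls.

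Mrpl17 encodes the large-subunit protein homologous to bacterial L17. Its ratio was lowest at time point 6 (-0.15), had a median of 0.36 and was highest at time point 3 (0.735). Its values were above 0 on all 18 arrays of the reduced set, between 0.06 and 0.79, and its 2 negative values, -0.36 and -0.09, were those of the second arrays of time points 6 and 10. The mean was 0.34 ± 0.22 (SD, n = 11 time points; limma adjusted p = 0.00390), and Mrpl17 was called in all 37 alternatives in which it was tested.

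Mrpl46 encodes a large-subunit protein without a bacterial counterpart. Its ratio lay between -0.45 at time point 11 and -0.045 at time point 2, with a median of -0.23, and was negative at all 11 time points. The mean was -0.24 ± 0.14 (SD, n = 11; limma adjusted p = 0.00531). Centring within blocks of 540 neighbouring probe numbers moved it to -0.04 and ended the call (limma adjusted p = 0.474).

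Mrpl17 and Mrpl46 were the members called most firmly in opposite directions, and the bases before their starts are shown for that reason. Bases before the annotated start are given from RefSeq (GRCm38.p6), 5′ to 3′ on the gene's strand, with matches to 3 motifs in capitals. Mrpl17 lies on the minus strand and its 250 bases at chr7:105811088-105811337. Mrpl46 lies on the minus strand head to head with Mrps11, another member, which begins at 78783131 on the plus strand. The other 209 of its 250 bases lie inside Mrps11, so the 41 bases between both genes are shown, at chr7:78783090-78783130.
Mrpl17: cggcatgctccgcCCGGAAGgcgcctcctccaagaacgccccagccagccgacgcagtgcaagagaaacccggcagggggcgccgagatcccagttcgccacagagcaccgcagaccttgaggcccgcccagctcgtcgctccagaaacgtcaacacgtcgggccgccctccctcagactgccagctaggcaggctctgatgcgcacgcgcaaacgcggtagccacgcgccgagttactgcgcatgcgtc
Mrpl46: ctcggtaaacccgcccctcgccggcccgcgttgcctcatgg
The motifs searched on both strands were CCGGAAG (the ETS site bound by GABPA, also called NRF-2), the palindromic 10-base NRF1 site and AAGATGGC (YY1), factors known to bind promoters of nuclear genes for mitochondrial proteins. The Mrpl17 window held 1 CCGGAAG match, from -237 to -231 relative to the start, and the 250 bases before Mrpl46 held none of the 3. Promoter entries were found for 61 members (67 entries of 32851 in the table). CCGGAAG stood in 20.9% of the members' windows and in 6.91% of all windows. The NRF1 site stood in 4.48% and 0.782%, and AAGATGGC in 5.97% and 1.56%. A match is a description of the letters and not a binding site.

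The other 2 called members were both named for the small subunit and were less stable. Mrps15, the homolog of a bacterial protein that binds the small-subunit rRNA, had a lowest value of -0.67 at time point 10, a median of -0.21 and a highest of 0.30 at time point 9. Its mean was -0.25 ± 0.28 (SD, n = 11; limma adjusted p = 0.0454), negative at 10 time points. Mrps18a ran between -0.59 at time point 5 and 0.04 at time point 8, with a median of -0.14. Its mean was -0.22 ± 0.22 (SD, n = 10; limma adjusted p = 0.0447), negative at 9 time points. The calls were lost in 19 of 37 alternatives for Mrps15 and in 17 of 36 for Mrps18a.

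The other members with the largest means in either direction, and Mrps16, were not called. Mrpl16, the homolog of a bacterial protein near the tRNA-binding sites of the large subunit, averaged 1.01 ± 2.54 (SD, n = 11; limma adjusted p = 0.299). The second array of time point 10 gave 16.87, whereas the 18 arrays of the reduced set lay between -0.13 and 0.53. Mrps31, a small-subunit protein, averaged 0.46 ± 0.76 (SD, n = 10; limma adjusted p = 0.137). Its probe sits at one of the raised spots and read 2.14 at time point 5 and 1.62 on the first array of time point 6, with a median of 0.11 over 16 arrays. Mrpl11, whose bacterial counterpart forms the base of the ribosomal stalk, averaged -0.28 ± 0.38 (SD, n = 11; limma adjusted p = 0.0755). Its lowest value, -1.16, came from the second array of time point 10, the only one with a value there. Mrps10 averaged -0.22 ± 0.84 (SD, n = 11), and its values are given below. Mrps16, homologous to bacterial S16, averaged 0.17 ± 0.22 (SD, n = 11; limma adjusted p = 0.0835), with -1.2 on the second array of time point 10 and -0.05 to 0.50 on the 18 arrays of the reduced set.

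In the reduced set, 7 of 24 members were called for the mean, 3 higher and 4 lower, where 32.3% of all genes were called (19.6% higher and 12.8% lower). The median over the tested members was -0.06, against 0.02 over all genes. Means lay below 0 in 13 of the 24 members (54.2%), against 46.5% of all genes. The 13 include Mrpl24 and Mrps10, whose means without time points 6 and 7 lay above 0 (0.25 and 0.20). Mrpl17 was again higher (0.39 ± 0.17, SD, n = 11; limma adjusted p = 0.000194). Mrpl16 was higher at 0.26 ± 0.15 (SD, n = 11; limma adjusted p = 0.00234) and Mrps16 at 0.24 ± 0.12 (SD, n = 11; limma adjusted p = 0.00194), so that all 3 were positive at all 11 time points. The lower members were Mrpl46, Mrps15, Mrps18a and Mrps25, a small-subunit protein (-0.17 ± 0.20, SD, n = 11; limma adjusted p = 0.0487). By name, 2 Mrpl genes were higher and 1 lower in this set, and 1 Mrps gene was higher and 3 were lower, Mrps18a among them.

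**Figure D1:**
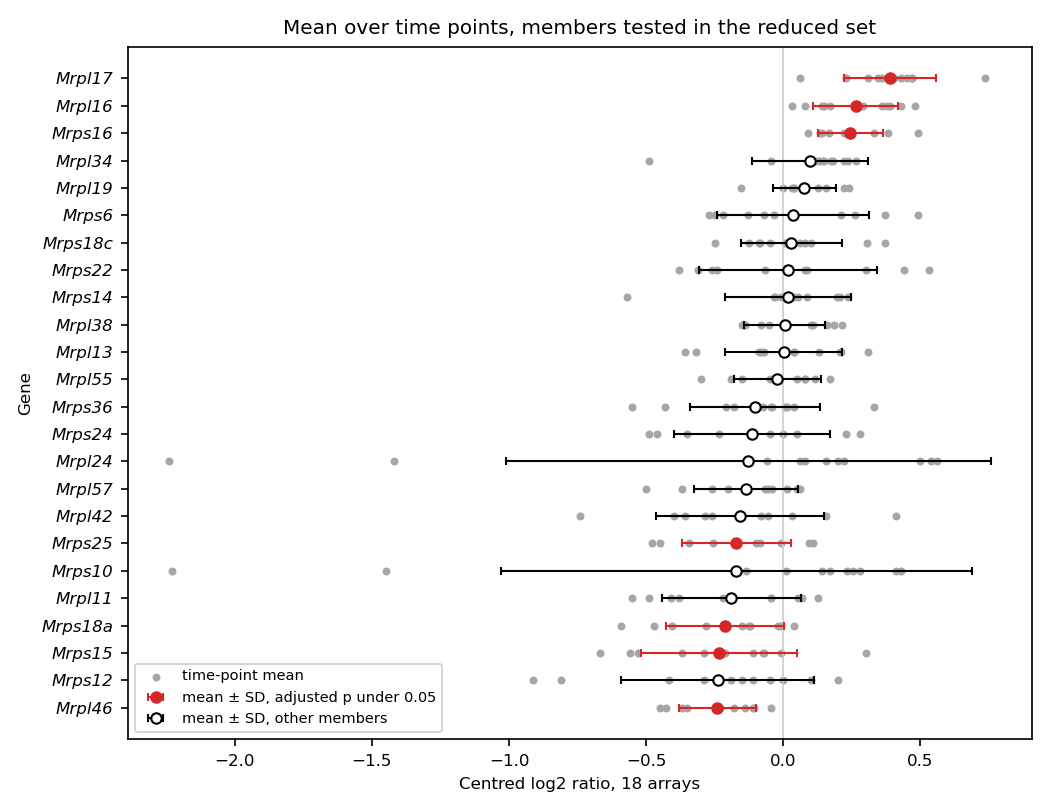
Mean centred log2 ratio of glutamine-varied over constant flasks for the 24 members tested in the reduced set of 18 arrays, genes ordered by mean; grey points are time-point means, large points the mean over time points and bars the SD, filled red where the limma adjusted p was under 0.05. Mrpl17, Mrpl16 and Mrps16 stand above 0 and Mrpl46, Mrps15, Mrps18a and Mrps25 below, while the wide bars of Mrpl24 and Mrps10 come from time points 6 and 7.

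Mrpl24 encodes a large-subunit protein whose bacterial counterpart sits at the tunnel exit and takes part in early assembly. Mrps10 encodes a protein of the head of the small subunit. These genes were singled out from earlier results of these data for low values at time points 6 and 7, so their values there are a description without a test. Mrpl24 had ratios of -1.42 on the first array of time point 6 and -2.24 on the second array of time point 7. Mrps10 had -1.45 and -2.23 on the same arrays. Both spots were blank on the second array of time point 6 and on the first array of time point 7, so each of these time points rests on 1 array for both genes.

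Mrpl24 read 0.54 and 0.54 on the arrays of time point 1, 0.26 and 0.14 on those of time point 2, and 0.15 and 0.29 on those of time point 3. It had 0.325 and 0.67 at time point 4 and 0.56 at time point 5. After time point 7 it read -0.10 and 0.26 on the arrays of time point 8, 0.24 and 0.07 on those of time point 9, 0.06 and -0.74 on those of time point 10, and -0.06 at time point 11. The ratio was thus above 0 on every array of time points 1 to 5, far below 0 at 6 and 7, and near 0 from time point 8, apart from the second array of time point 10. Its mean was -1.83 at time points 6 and 7, against 0.21 ± 0.30 over the other 9 (SD, n = 9).

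Mrps10 read 0.58 and 0.24 on the arrays of time point 1, 0.33 and 0.18 on those of time point 2, and 0.24 and 0.32 on those of time point 3. It had 0.345 and 0.12 at time point 4 and 0.17 at time point 5. After time point 7 it read -0.25 and -0.02 on the arrays of time point 8, 0.20 and 0.08 on those of time point 9, 0.43 and -0.74 on those of time point 10, and 0.01 at time point 11. Like Mrpl24, Mrps10 had values above 0 at time points 1 to 5 and its 2 lowest values on the same arrays. The order of the other arrays differed between the genes. On the second array of time point 4, Mrpl24 had its highest value (0.67), where Mrps10 read 0.12. On the first array of time point 10, Mrps10 read 0.43 and Mrpl24 read 0.06. The mean of Mrps10 was -1.84 at time points 6 and 7, against 0.13 ± 0.19 over the other 9 (SD, n = 9).

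The low values were not shared by the other members measured on these arrays. On the first array of time point 6, 26 members had a value and 2 lay below -1, namely Mrps10 and Mrpl24, while the next lowest was Mrpl42 at -0.74. On the second array of time point 7, again 26 members had a value and the same 2 lay below -1, with Mrpl15 next at -0.82. On the first array of time point 7, where both genes were blank, none of 29 members lay below -1 and the lowest was Mrps34 at -0.81. Without Mrpl24 and Mrps10, the family's median was -0.02 over 39 members at time point 6 and -0.045 over 33 members at time point 7. Medians of the whole family at the 11 time points lay between -0.0925 (time point 8) and 0.06 (time point 5), so time points 6 and 7 did not stand out in them.

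**Figure D2:**
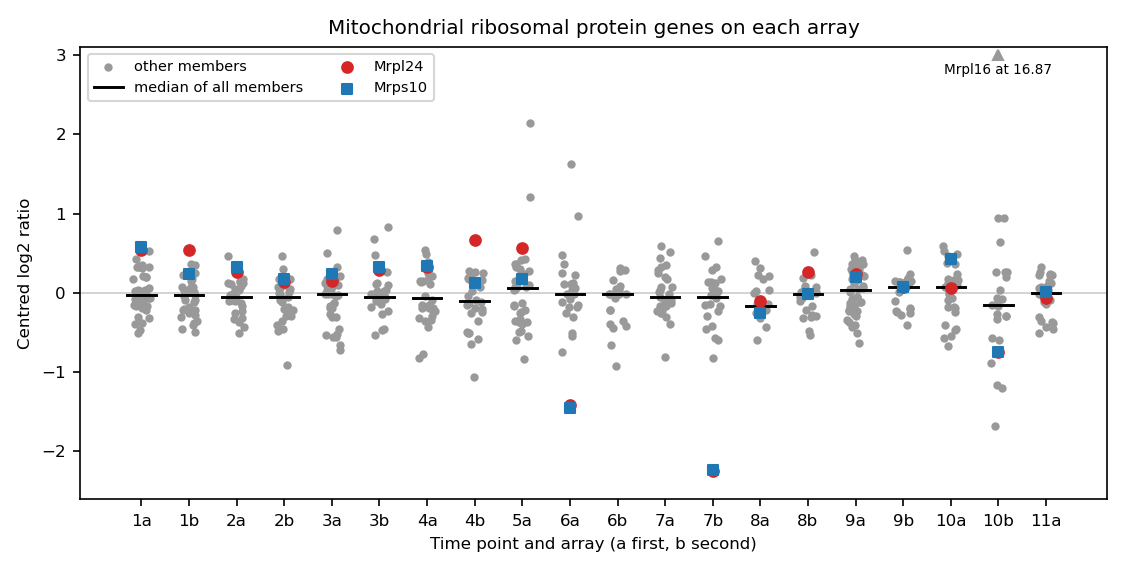
Centred log2 ratio of glutamine-varied over constant flasks for every measured mitochondrial ribosomal protein gene on each of the 20 arrays, by time point with a for the first and b for the second array; grey points are members, black bars the median of all members on the array, and the value of Mrpl16 on 10b is drawn at the top edge. Mrpl24 (red) and Mrps10 (blue) leave the other members on 6a and 7b, where the medians stay near 0.

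Time points 6 and 7 were then set against the other 9 in limma, using time-point means. Among the 21 other members that could be tested, none was called higher or lower, and 1 had an unadjusted p under 0.05. Of all genes but Mrpl24 and Mrps10, 1.22% were called, nearly all of them lower (48 of 49). The median difference was 0.05 over these members, against -0.01 over all genes, and 8 of the 21 differences lay below 0. In the reduced set none of 19 members was called either, with 1 at an unadjusted p under 0.05, where 2.78% of all genes but these were called. The standard errors of the single differences lay between 0.12 and 0.53, without that of Mrpl16, which limits the size of shift that could be detected in a single gene.

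The member with the unadjusted p was Mrpl34, homolog of one of the smallest bacterial large-subunit proteins. It read 0.13 on the first array of time point 6 and -0.39 and -0.59 on the arrays of time point 7. Its mean was -0.18 at time points 6 and 7, against 0.15 ± 0.10 over the other 9 (SD, n = 9). The difference was -0.33 (limma adjusted p = 0.510), and it was -0.02 without time point 7. Its low values thus fell at time point 7 and continued on the first array of time point 8 (-0.28), with -0.06 on the second array of time point 10 and all other values above 0.

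The other members named for the size of their difference had no call. Mrpl17 read 0.06 and -0.36 on the arrays of time point 6 and 0.07 and 0.65 on those of time point 7. Its mean was 0.105 at time points 6 and 7, against 0.40 ± 0.16 over the other 9 (SD, n = 9), a difference of -0.29 (limma adjusted p = 0.649). The 2 arrays of time point 7 thus lay on either side of that mean. Mrpl16 differed by -0.72 with all arrays (limma adjusted p = 0.956), with its value of 16.87 at time point 10, and by 0.19 in the reduced set. Mrps31 differed by 0.51 (limma adjusted p = 0.885) and Mrps12, a protein of the decoding centre, by 0.37 (limma adjusted p = 0.913), both with raised spots at time point 6. Mrpl38, a large-subunit protein, differed by 0.21 (limma adjusted p = 0.673), and its arrays of time point 7 read 0.59 and -0.16. Mrps18c, a small-subunit protein, differed by 0.20 (limma adjusted p = 0.921), and its lowest value of -1.68 was on the second array of time point 10.

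As a further description, 28 members had values at both time points 6 and 7, and 9 of them (32.1%) were below 0 at both, against 28.0% of 4717 genes. Below -1 at both were 2 members (Mrpl24 and Mrps10), against 45 of all genes (0.954%). In the reduced set, 8 of 23 members (34.8%) were below 0 at both, against 29.4% of all genes. The counts of 9 and 8 include Mrpl24 and Mrps10, which were singled out for these values. These shares are therefore not those of the other members.

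The genes with profiles most like those of Mrpl24 and Mrps10 were then listed as a description. Likeness was measured, after the values had been seen, as Pearson's r over the arrays without the second of time point 10, among 3798 genes sharing at least 14 arrays. For either gene only 19 of these candidates were other members, so a list made up mostly of other genes has little meaning for the family. Mrpl24 and Mrps10 correlated with each other at r = 0.957 over 17 arrays. Both genes were low on the same 2 arrays, and the correlations are given without a test. Among genes with a name, the highest for Mrpl24 were Prg2, an eosinophil granule protein (r = 0.984), and Mroh4 (r = 0.958). For Mrps10 the highest with a name were Prg2 (r = 0.975) and Map3k3, a MAP kinase kinase kinase (r = 0.958). An unnamed probe ranked second for both (r = 0.971 and 0.972). Prg2 had -1.58 on the first array of time point 6 and -2.80 on the second array of time point 7.

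Of the candidates, 21 correlated with Mrpl24 and 18 with Mrps10 at r above 0.9. In both cases 1 of the 19 members reached this, namely the other of the pair, singled out for the same low values. The other members had a median r of -0.0068 with Mrpl24 and -0.0078 with Mrps10. The most alike was Mrpl34, at r = 0.733 and 0.752. In all, 46 of 3581 probes with values on both arrays (1.28%) lay below -0.6 on the first array of time point 6 and below -1.2 on the second array of time point 7, limits chosen after seeing the values. They lay in 23 different blocks of 540 probe numbers. Mrpl24 and Mrps10 were in different blocks, the 26th and the 20th, and at the last and the 7th of 20 places. The last place held 6 of the 46 probes (13%), against 3.77% of the 3581 probes, and the 7th held 5 (10.9%), against 5.47%. The part of these places in the low values was not tested. Of the 46 probes, 6 were blank on the first array of time point 7, against 269 of the 3581.

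**Figure D3:**
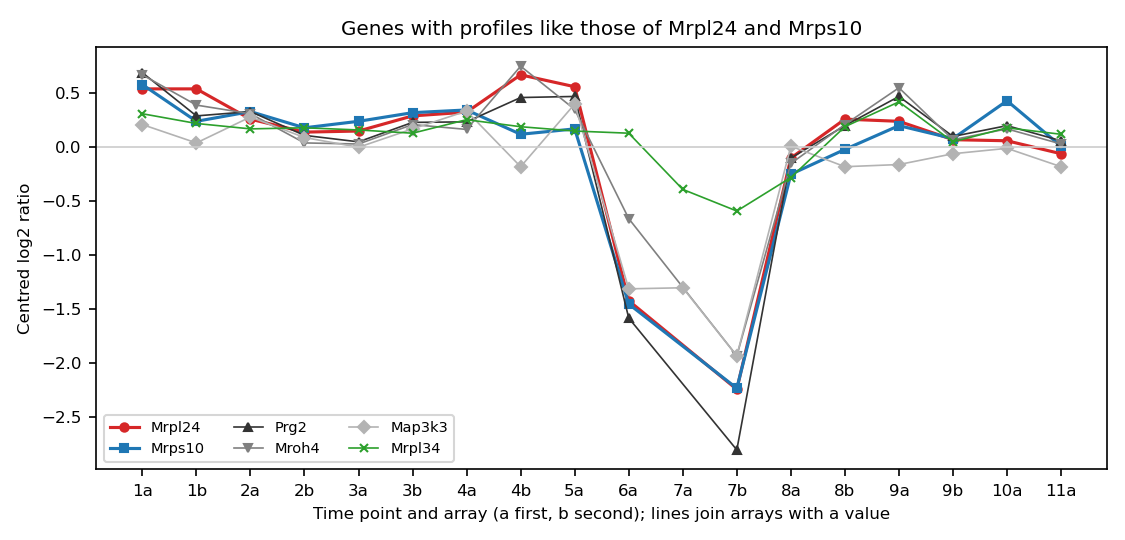
Centred log2 ratio of glutamine-varied over constant flasks on each array of the reduced set for Mrpl24, Mrps10, 3 genes with similar profiles (Prg2, Mroh4 and Map3k3) and Mrpl34, with a for the first and b for the second array of a time point; lines join arrays with a value. The first 5 fall on 6a and 7b and return to near 0 at time point 8, whereas Mrpl34 is at 0.13 on 6a and at -0.59 on 7b.

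The test for differences among the 11 time points asked whether any member's ratio moved over the course. In limma's F-test, 3 of 16 members were called, where 7.52% of all genes were. Of these, Mrpl24 and Mrps10 had been singled out for such values, which leaves Mrps12 (limma adjusted p = 0.0279). The count hung on single arrays, with 11 of 15 called without the first array of time point 10 and 0 of 13 without the second of time point 7. Of all genes, 53.8% and 4.36% were called in these settings, so the count over the whole series moved as well. Mrps12 has 2 probes, and they disagreed. The probe with more values read -0.765 and -1.06 on the arrays of time point 4, -0.81 at time point 5, -0.26 and -0.57 on those of time point 7, and between -0.29 and 0.20 at the remaining time points. The other, at the first of 20 places, had 4 values, of which 3.22 at time point 5 and 1.75 on the first array of time point 6 were raised. Averaging both gave 1.21 for time point 5 and 0.98 for time point 6, and with the probe of most values alone the call was lost (limma adjusted p = 0.137). In the reduced set Mrps12 was called (limma adjusted p = 9.63e-05), with its lowest values, -0.91 and -0.81, at time points 4 and 5.

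In the reduced set, 5 of 14 members were called among time points, or 3 of 12 without Mrpl24 and Mrps10, where 33.6% of all genes were. Besides Mrpl24, Mrps10 and Mrps12 these were Mrpl42, a large-subunit protein (limma adjusted p = 0.0114), and Mrpl34 (limma adjusted p = 0.0390). Mrpl42 ran between -0.74 at time point 6 and 0.41 at time point 5, each the value of 1 array. The second array of time point 6, outside this set, read 0.31.

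At single time points, tested against 0 in the same fit, the 16 members gave 10 calls over the 11 time points with all arrays, 3 higher and 7 lower. Of all such tests, 3.78% were called (2.3% higher and 1.48% lower). Without the first array of time point 10 there were 29 calls, and without the second 24. The F-test called 53.8% and 29.2% of all genes in these settings, and the share of all single tests was not computed for them. The low calls of Mrpl24 and Mrps10 at time points 6 and 7 made up 4 of the 10 and are given as a description only. Mrps12 was called lower at time point 4 (-0.91) and, with its raised spot averaged in, higher at 5 and 6. Mrpl11 at time point 10 (-1.16) and Mrpl16 at time point 10 (8.65) rested on the second array of that time point. Of all genes, 2% were called at time point 4, 11.6% at 5, 4.17% at 6 and 12.7% at 10. The remaining call was Mrpl34, lower at time point 7 (-0.49, limma adjusted p = 0.0390), where 9.89% of all genes were called.

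In the reduced set, 14 members gave 24 calls, 13 higher and 11 lower, where 16.2% of all such tests were called. The share of all genes called differed between time points, with 24.4% at time point 1, 26.4% at 4 and 30.6% at 7. Without Mrpl24 and Mrps10, which were singled out for their values at time points 6 and 7, 12 members gave 16 calls. Mrpl17 was higher at time points 2, 3, 4, 7 and 9, and most so at time point 3 (0.735, limma adjusted p = 6.60e-05). Mrpl16 was higher at time points 1, 4 and 7, and Mrps16 at time point 3 (0.49, limma adjusted p = 0.00869). Mrpl24 was higher at time points 1 (0.54, limma adjusted p = 0.00201), 4 and 5, and Mrps10 at time point 1 (0.41, limma adjusted p = 0.0179). Lower calls, besides those of Mrpl24 and Mrps10 at 6 and 7, were Mrpl46 at time point 4 (-0.43), Mrps12 at 4, 5 and 7, and Mrpl42 at 6. Mrpl34 was again lower at time point 7 (limma adjusted p = 0.00326), where 30.6% of all genes were called. Mrps36 was lower at time point 10 (-0.55, limma adjusted p = 0.0314), where its value came from the first array alone, while the second, outside this set, read 0.95. No call of the family fell at time points 8 and 11, where 9.02% and 4.02% of all genes were called.

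**Figure D4:**
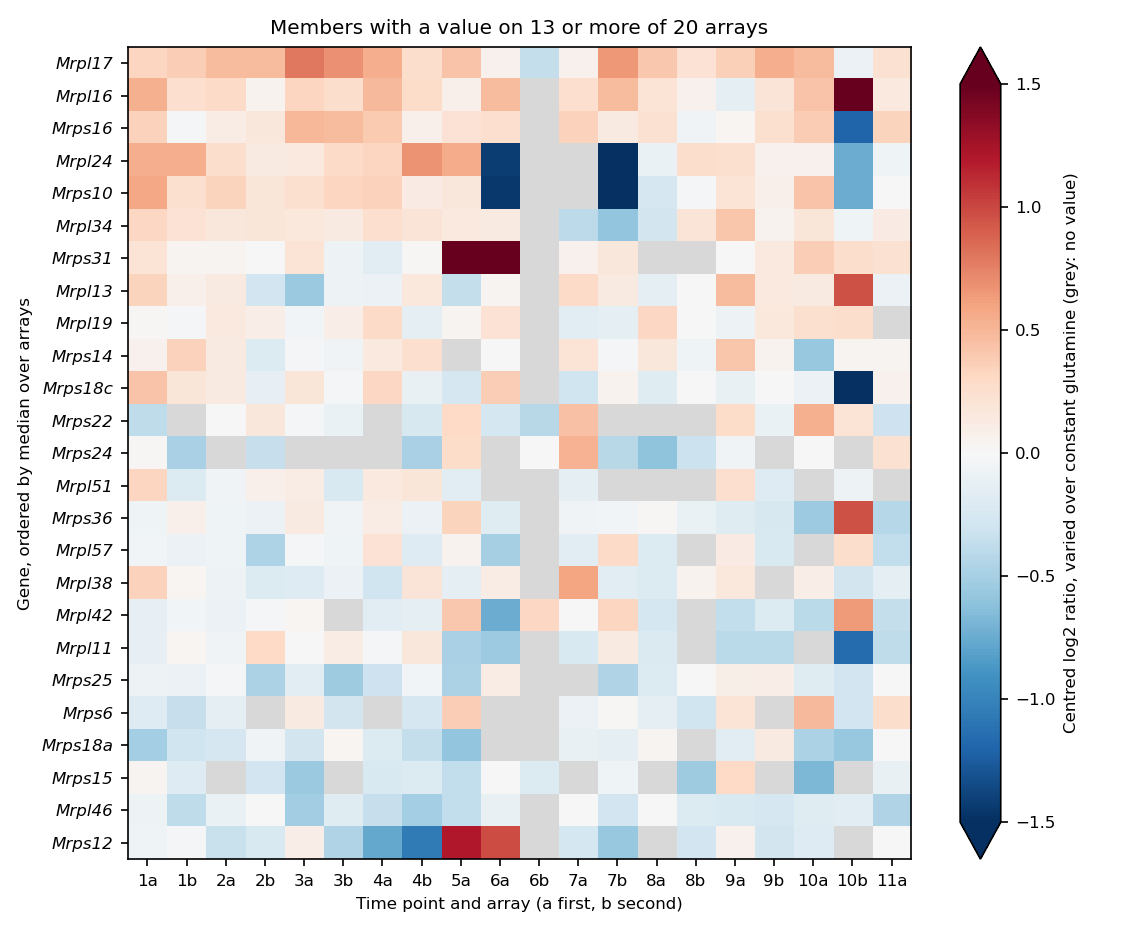
Centred log2 ratio of glutamine-varied over constant flasks for the members with a value on 13 or more of 20 arrays, by time point with a for the first and b for the second array; genes are ordered by their median, grey marks a blank spot and colours saturate at -1.5 and 1.5. Rows near the top (Mrpl17, Mrpl16, Mrps16) are mostly red and rows near the bottom (Mrpl46, Mrps15, Mrps18a) mostly blue, with no column in which the family moves as a whole.

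The members did not follow each other over the arrays. Over the 18 arrays, 19 members with 15 or more values formed 171 pairs with a median r of -0.0095, and 49.7% of pairs were positive. Cytosolic ribosomal protein genes, which encode the ribosome of the cytosol, had a median r of 0.223 over 561 pairs, and 73.8% were positive. Nuclear genes of the respiratory chain and ATP synthase had a median of -0.017 over 325 pairs, and all genes had 0.021. These are descriptions, since the pairs share the same arrays.

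A further 35 members had values but at too few time points for the mean to be tested. Their means lay below 0 in 24 and above in 11. For 8 of them the only value was on the second array of time point 6, which had values at other spots than the rest, and these 8 hold both ends of the range (-0.92 and 0.29). The means of the others ranged from -0.49 to 0.27. Among the low ones, named here after their values were seen and without a test, was Mrpl15, a large-subunit protein, with -0.49 ± 0.32 (SD, n = 8 time points). Mrpl44, a large-subunit protein, was at -0.39 ± 0.14 (SD, n = 6), negative at each time point with a value. Mrps9, a small-subunit protein, was at -0.39 ± 0.15 (SD, n = 5), also negative at each.

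Other genes of mitochondrial translation were poorly covered. Of all genes, 22.6% were called for the mean, and lists with so few tested genes cannot be told apart from that share. Of mitoribosomal proteins that carry other names (such as Dap3), 2 of 7 had a value and none could be tested. Of the mitochondrial translation factors 1 was tested, of the assembly and rRNA modification factors 5, of the mitochondrial aminoacyl-tRNA synthetases 3, of mitochondrial DNA replication and transcription 3, and of the regulators that include Nrf1 and Gabpa 3, and none was called for the mean. Among 5 genes of protein import and proteolysis, Phb, which encodes the inner-membrane scaffold prohibitin, was higher (0.38 ± 0.32, SD, n = 11; limma adjusted p = 0.0111). Timm13, an import chaperone of the intermembrane space, was lower (-0.41 ± 0.37, SD, n = 11; limma adjusted p = 0.0149).

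A few genes of these lists and of the respiratory chain were called lower at time points 6 and 7 in 1 or both sets of arrays. Of all genes but Mrpl24 and Mrps10, 1.22% were called with all arrays and 2.78% in the reduced set. Timm13 had a mean of -1.08, against -0.26 ± 0.18 over the other 9 (SD, n = 9), and the difference of -0.83 was called (limma adjusted p = 0.0132). Tsfm, the mitochondrial elongation factor Ts and the only translation factor tested, read -0.745 at time point 6 and -0.60 at time point 7, against 0.13 ± 0.31 over the other 9 (SD, n = 9). Its difference was -0.80 with all arrays (limma adjusted p = 0.149) and -0.88 in the reduced set, where it was called (limma adjusted p = 0.0159). Ndufb5, a subunit of respiratory complex I, read 0.01 at time point 6 and -1.095 at time point 7 with all arrays. Its difference was -0.81 (limma adjusted p = 0.278). In the reduced set Ndufb5 read -0.63 at time point 6 and differed by -1.14, where it was called (limma adjusted p = 0.00276). With all arrays, only 12 of 38 respiratory chain and ATP synthase genes had differences below 0, with a median of 0.11. Of 5 import and proteolysis genes, 3 had differences below 0, with a median of -0.06. No other gene of the lists was called for this difference in either set.

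Of 43 cytosolic ribosomal protein genes tested, 9 were higher and 4 lower, with a median of 0.10, and of 41 respiratory chain and ATP synthase genes 4 were higher and 3 lower, with a median of 0.04. Set beside 1 higher and 3 lower of 25 mitochondrial ribosomal protein genes, these are counts only, and the difference between the lists was not tested. Of all genes, 13.6% were called higher and 9.05% lower.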

How the data were processed

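The deposited table holds a log2 ratio per spot and array. Per the labels, the control RNA carried Cy3 and the experimental RNA Cy5. Base 2 is an assumption, and scanning, background correction, normalization and the rule for blank spots are not stated in the labels. The number of arrays limits precision. Spot intensities were not used.

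Each array was centred on its median and probes of 1 symbol were averaged. All 73 member probes matched RefSeq by Entrez ID, and no symbol changed. Linear models with limma's moderated variance (limma 3.58.1, R 4.3.3) were fitted to all genes, with Benjamini-Hochberg adjusted p under 0.05 as a call. The mean and the contrast of time points 6 and 7 used time-point means (9 or more time points) and treat time points as independent. The F-test and single time points used all arrays (16 or more, and every time point, or 15 of 18 in the reduced set). The scripts were tested on simulated data.

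Members, lists and tests were chosen with earlier results of these data known. Named members are those called in any test, Mrpl24 and Mrps10, and the 4 highest and 4 lowest by mean and by the difference of time points 6 and 7, of which Mrpl24 and Mrps10 are the 2 lowest. The difference of Mrpl17 was added after its value was seen. Of the other lists, up to 4 called members with the largest size are named. Genes named outside this rule are marked in the text. Alternatives changed the centring, arrays, probes, minimum number of values, moderation and block, and left out each time point or array. The setting without time point 4 entered 2 times in the counts of alternatives for the mean and for time points 6 and 7.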

Additional observations from a re-analysis of the deposited data

Results flagged for a closer look

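Mrps12 was the only member, besides Mrpl24 and Mrps10, whose ratio differed among time points in limma's F-test with all arrays (adjusted p = 0.0279). Its 2 probes disagreed at time point 5, with -0.81 on the probe with more values and 3.22 on the probe at a raised spot. With the probe of most values alone the adjusted p was 0.137, and leaving out single arrays gave limma adjusted p between 5.56e-08 and 0.0801. The part of the raised spots in the all-array call was not tested further.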

How the results depend on the processing

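Without centring, the median of the mean was 0.22 over the members and 0.28 over all genes, and 12 members were called for the mean, all higher. The means of Mrps15 (0.0205), Mrpl46 (0.0123), Mrps10 (0.0286), Mrps18a (0.047) and Mrps12 (0.236) then had the opposite sign, and single time points gave 32 calls (26 higher and 6 lower). Members called for the mean numbered 7 in the reduced set, 2 without time point 4, and 2 with no moderation of the variance. They numbered 2 to 6 when single time points or arrays were left out, with 2 without any of time points 1 to 5 and without the first array of time point 3 or 10. Members called among time points numbered 5 with centring by block, 5 in the reduced set, 1 with no moderation and 0 of 1 tested when values on all arrays were required. Leaving out single arrays gave 0 to 11, with 1 without either array of time points 1, 2 or 4, the second of time point 8 or the first of time point 9. It was 0 of 13 tested without the second array of time point 7, 0 of 2 without the first of time point 6, and 11 of 15 without the first of time point 10. Of all genes, 4.36%, 11.8% and 53.8% were called in these settings. Calls at single time points numbered 24 in the reduced set, 5 without time point 4, 6 with no moderation, 1 when all arrays were required, and 1 to 29 without single arrays. They were 24 and 29 without the second or first array of time point 10, 1 without the first array of time point 6 and 2 without the second of time point 7. They were 5 or 6 without the second array of time point 1 or 8, the first of time point 7, or either array of time points 2, 4 or 9. The share of all such tests called without single arrays was not computed.

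Without Mrpl24 and Mrps10, whose calls are not counted, no member was called for time points 6 and 7 in any of 39 alternatives. Signs turned for Mrpl16 (0.19 in the reduced set, and -1.64 to 0.22 without single time points or arrays). Without single time points or arrays the ranges were -0.24 to 1.26 for Mrps31, -0.33 to 1.06 for Mrps12 and -0.0453 to 0.45 for Mrps18c, the lowest of each without time point 6. They were -0.64 to -0.02 for Mrpl34 (without time points 6 and 7), 0.02 to 0.40 for Mrpl38 (without the first and the second array of time point 7) and -0.55 to -0.04 for Mrpl17 (without time points 7 and 6). The mean of Mrps12 was 0.067 without time point 4 and ran from -0.145 to 0.067 in these. The causes were not tested.

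With the array title r as a replicate block, 3 members were still called among time points, 7 calls were made at single time points and 0 for time points 6 and 7 (2 at an unadjusted p under 0.05). Differences between the arrays of a time point correlated between time points at -0.432 to 0.332 (median 0.0042, 9 of 36 pairs over 0.1). The arrays titled r thus showed no difference shared by most time points, which does not settle what r stands for. The mean was not fitted with the block, since arrays were averaged.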
